A study of Mus musculus with 9 samples.

Results

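The sites where histone H3 trimethylated at lysine 36 (H3K36me3) joins H3 trimethylated at lysine 4 (H3K4me3) were compared between EK and wild-type mouse spermatocytes. Wild type is C57BL/6J (B6, genotype PRDM9-WT). EK is strain C57BL/6J-Prdm9<em3Kpgn>/Kpgn, homozygous for a substitution of glutamate 360 of PRDM9 by lysine, which the labels call a severe catalytic hypomorph. Chromatin immunoprecipitation with sequencing was done on spermatocytes taken 14 days after birth, and the comparison rests on 1 H3K36me3 library per genotype, 2 of the 9 libraries of the series. The wild-type library was earlier data analysed again and the EK library was new, so genotype and library cannot be told apart. The wild-type H3K36me3 signal track is named as a merge, so its list may rest on more reads than the EK list. The 2 H3K4me3 libraries of each genotype are described with 1 list per genotype, which may pool both. Both B6 H3K4me3 libraries were earlier data analysed again, while 1 of the 2 EK ones was new. Whether the spermatocytes of 1 library came from 1 mouse or several is not given in the sources used here.

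A site was called double-marked where the authors' list of peaks with both marks overlapped an H3K4me3 peak of the same genotype by 1 bp or more. This gave 243 double-marked intervals in EK and 6894 in B6, of 7549 in the 3 genotypes of the series. The other genotype, EP (C57BL/6J-Prdm9<em2Kpgn>/Kpgn), carries proline at residue 360 and is used below only for its values. All lists are restricted to known PRDM9-dependent sites and give positions without a height, score or read count. With 1 list per genotype no test between genotypes was possible, and the 95% Wilson intervals below cover the sampling of peaks only. The spermatocyte label could not be checked, because the lists hold only PRDM9-dependent sites.

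PRDM9 binds DNA through a zinc finger array in early meiotic prophase and trimethylates lysines 4 and 36 of histone H3 on the nucleosomes beside its binding site. Sites with both marks are where programmed DNA double-strand breaks form, and ZCWPW1 is a known reader of the pair. H3K36me3 is also laid along the bodies of transcribed genes by another enzyme, SETD2. For that reason sites are described below separately inside and outside the spans of protein-coding genes, introns included.

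Only 1 promoter sequence of the RefSeq tables (build GRCm38.p6, whose coordinates are those of mm10) lay under an EK double-marked interval, and 1 microRNA hairpin did. They are shown as the DNA known here under the EK double mark, 1 at a site with both marks in B6 and 1 at a site with H3K4me3 alone in B6. Capitals mark bases inside the EK double-marked interval, which holds every base of both. Each is given 5′ to 3′ on its own strand, the first as the 250 bases before a Dennd1b start at chr1:138967471-138967720 on the plus strand, the second in RNA letters from chr3:95734911-95734973 on the minus strand.
Dennd1b promoter: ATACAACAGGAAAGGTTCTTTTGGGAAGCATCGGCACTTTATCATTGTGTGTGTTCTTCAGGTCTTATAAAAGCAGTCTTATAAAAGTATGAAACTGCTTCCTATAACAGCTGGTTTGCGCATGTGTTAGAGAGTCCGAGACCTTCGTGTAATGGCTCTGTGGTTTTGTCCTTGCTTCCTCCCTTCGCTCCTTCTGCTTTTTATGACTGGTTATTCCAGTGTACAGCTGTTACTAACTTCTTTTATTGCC
microRNA 7014 hairpin: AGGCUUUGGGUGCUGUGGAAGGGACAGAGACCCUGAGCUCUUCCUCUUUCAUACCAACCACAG

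At the Dennd1b start the double mark spanned 1873 bp in B6 and 762 bp in EK, and in each genotype it covered the whole H3K4me3 interval. The hairpin lies within the span of Ecm1, which encodes an extracellular matrix protein. There the B6 H3K4me3 interval of 888 bp had no double mark, and the EK interval of 607 bp was covered completely. A promoter window of 300 bases was overlapped by the H3K4me3 interval of 2 of 243 double-marked peaks in EK (0.823%, 0.226 to 2.95%) and by 66 of 6892 in B6 (0.958%, 0.753 to 1.22%). Over all H3K4me3 peaks the shares were 1.51% in EK and 0.988% in B6.

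Of the H3K4me3 peaks in EK, 7.35% also carried the double mark (243 of 3307), against 37.4% in B6 (6892 of 18427). The EK minus B6 difference was -30.1 percentage points (95% Newcombe interval -31.1 to -28.9). EK thus had 5.57 times fewer H3K4me3 peaks than B6 but 28.4 times fewer double-marked intervals. In length the contrast was wider. The double mark spanned 9642 kb in B6 and 192.2 kb in EK. The EK total was thus 1.99% of the B6 double-marked length, beside 10.3% for the H3K4me3 length. These totals count all intervals of each genotype, at shared sites or not. EP lay between them, with 11.1% of 3703 H3K4me3 peaks double-marked.

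The lower share in EK was present on every chromosome that had peaks in both lists, 20 of 20. Over the 19 autosomes the B6 share ran from 32.2% on chromosome 17 to 40.5% on chromosome 12, with a median of 37.4%. The EK share ran from 3.13% on chromosome 7 (5 of 160, 1.34 to 7.11%) to 13.1% on chromosome 19 (11 of 84, 7.47 to 21.9%), with a median of 7.69%. The highest EK share was below the lowest B6 share. Whether chromosomes differed among themselves within EK was not tested. On the X chromosome 224 of 622 B6 peaks and 4 of 106 EK peaks (3.77%) were double-marked.

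Part of the gap went with interval width, since H3K4me3 intervals were narrower in EK (median 664 bp) than in B6 (1126 bp) and wide intervals were more often double-marked in both genotypes. Among intervals of 1000 bp or more, 54.9% were double-marked in B6 (54.0 to 55.8%, 6085 of 11087) and 20.3% in EK (17.1 to 24.0%, 106 of 521). Among narrower intervals the shares were 11.0% in B6 (10.3 to 11.7%) and 4.92% in EK (4.17 to 5.78%). When the B6 shares in 8 width classes were weighted to the EK widths, B6 came to 15.4%, which is 2.10 times the EK share, an EK minus B6 difference of -8.08 percentage points. From 1500 to under 2000 bp, 73.6% of 3256 B6 peaks and 37.3% of 75 EK peaks were double-marked (27.3 to 48.6% in EK). Widths were called from libraries of unknown depth, so equal width need not mean equal H3K4me3.

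The double mark found in EK, at shared sites or not, lay mostly within genes. Of the EK double-marked peaks, 193 of 243 overlapped a protein-coding gene span (79.4%, 73.9 to 84.0%), against 3417 of 6892 in B6 (49.6%, 48.4 to 50.8%). H3K4me3 peaks without the double mark did not show this difference, with 55.4% inside spans in EK (53.6 to 57.1%) and 56.6% in B6 (55.7 to 57.5%). Inside gene spans the double-marked share was 34.3% in B6 and 10.2% in EK, 3.36 times lower. Outside them it was 41.0% in B6 and 3.53% in EK, 11.6 times lower, and only 50 EK double-marked peaks lay there. In EP 75% of the double-marked peaks were inside spans (70.6 to 78.9%), an interval that overlaps that of EK.

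Outside gene spans, narrow EK intervals were nearly free of the double mark, with 11 of 1195 below 1000 bp (0.921%, 0.515 to 1.64%). Below 400 bp it was 0 of 276, which allows a share of up to 1.09% by 3 counts of the total (Wilson upper bound 1.37%). Inside gene spans 126 of 1591 such narrow EK intervals were double-marked (7.92%, 6.69 to 9.35%). The corresponding B6 shares below 1000 bp were 7.68% outside (6.83 to 8.62%) and 13.9% inside (12.8 to 14.97%). Inside gene spans and below 600 bp the genotypes were close, at 9.15% of 492 EK intervals and 10.7% of 769 B6 intervals of 400 to under 600 bp, with overlapping intervals of 6.91 to 12.02% and 8.67 to 13.0%. Among wide intervals the order was the other way round in B6, in each of the 3 widest of the 8 width classes (61.6% outside and 51.0% inside in the narrowest of these 3). At 2000 bp or more, 96.3% of 653 B6 intervals outside gene spans were double-marked (94.6 to 97.5%) and 49.7% of 972 inside (46.6 to 52.8%). EK had only 6 and 14 intervals of that width, of which 4 and 6 were double-marked. At 1500 to under 2000 bp 15 of 36 EK intervals were double-marked outside (41.7%, 27.1 to 57.8%) and 13 of 39 inside (33.3%, 20.6 to 49.0%). In the class just below it was 12 of 60 outside and 19 of 66 inside (28.8%), the other way round. Over all EK intervals of 1000 bp or more, 17.5% were double-marked outside (13.1 to 23.0%) and 22.5% inside (18.1 to 27.6%), with overlapping intervals, against 63.3% outside and 47.8% inside in B6. Read depth and transcription of the genes were not analysed here, and their part in these shares was not tested.

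**Figure D1:**
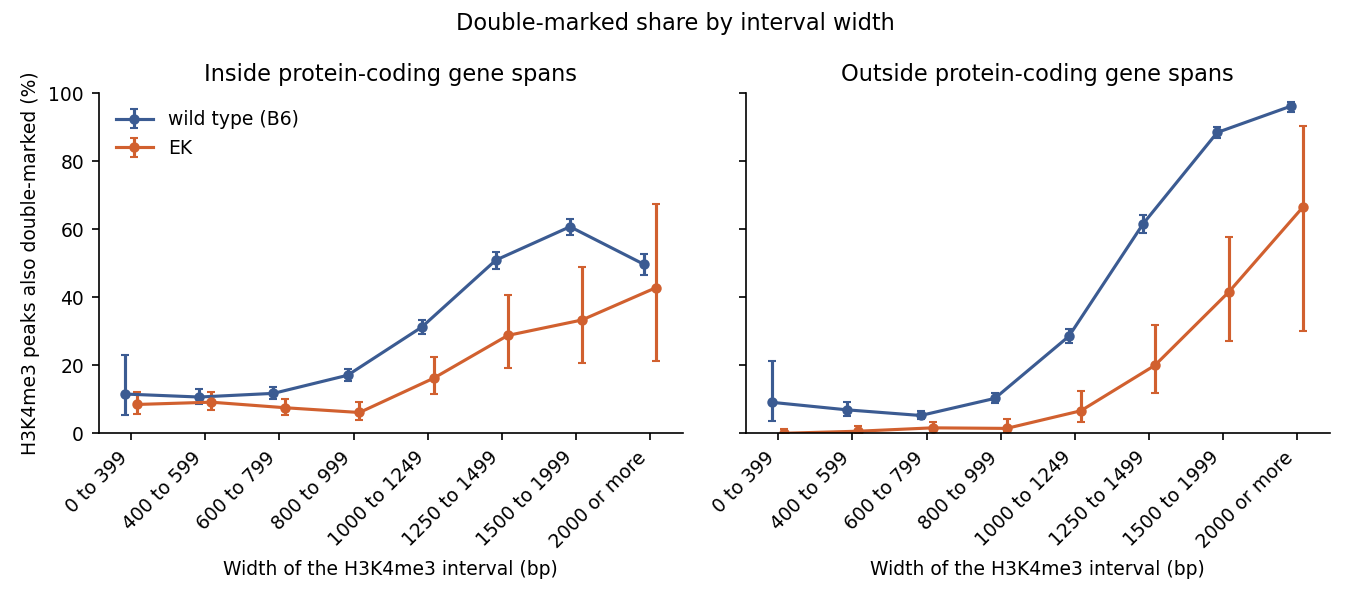
Share of H3K4me3 peaks that were double-marked (y axis, percent) by width of the H3K4me3 interval (x axis, bp), inside and outside protein-coding gene spans, with 95% Wilson intervals as bars. Outside gene spans the EK points stay below 2% in the classes under 1000 bp (0.921% over all of these) and are below B6 in every class. Inside spans the intervals of the narrowest classes overlap, and so do those of the widest class, which has only 14 EK peaks.

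The double-marked share also varied with gene length. Peaks within genes were sorted by the length of the shortest protein-coding span that held them. In EK the double-marked share was 15.2% in genes under 30 kb (12.1 to 19.0%, 62 of 407), 10.6% from 30 to under 100 kb, 8% from 100 to under 300 kb and 7.16% in genes of 300 kb or more (4.90 to 10.4%, 25 of 349). In B6 the same classes held 29.1%, 24.0%, 35.4% and 48.3% (46.4 to 50.3% in the last, 1183 of 2447). The EK share was thus highest in the shortest genes and the B6 share in the longest. The EK interval from 30 to under 100 kb, 8.38 to 13.4%, overlapped that of the shortest genes. Those of the EK classes from 30 kb up all overlapped each other. The gene holding a double-marked peak had a median length of 59.97 kb in EK and 176.8 kb in B6, while for peaks with H3K4me3 alone the medians were 96.8 and 102.3 kb. Median H3K4me3 width varied less between these gene classes, from 595 to 722 bp in EK and from 1055 to 1173 bp in B6.

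**Figure D2:**
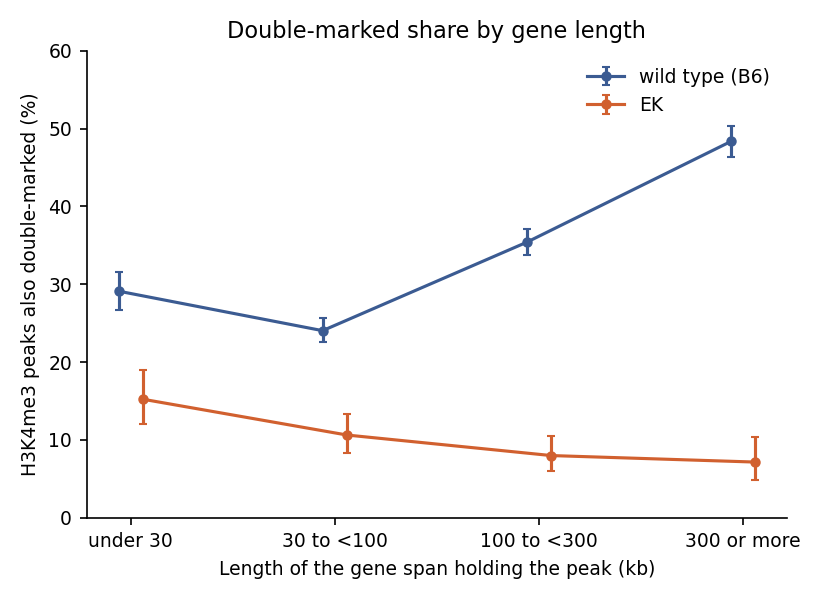
Share of H3K4me3 peaks within protein-coding genes that were double-marked (y axis, percent) by length of the gene span (x axis, kb), with 95% Wilson intervals as bars. The EK share goes from 15.2% to 7.16% across the 4 classes, and the B6 share is highest, 48.3%, in the longest genes.

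EK peaks lay nearer to the gene start than B6 peaks, among peaks in 1 protein-coding gene of known strand. Of all H3K4me3 peaks there, 46.6% of 1477 in EK (44.0 to 49.1%) and 33.0% of 7695 in B6 (32.0 to 34.1%) were in the first of 3 equal parts of the gene. In EP it was 43.1% of 1701 (40.8 to 45.5%), an interval that overlaps that of EK. The median position of double-marked peaks was 29.4% of the gene length from the start in EK and 49.97% in B6, and that of peaks with H3K4me3 alone was 37.3% and 50.9%. The intervals of the double-marked share overlapped between the 3 parts. In EK 11.8% of peaks in the first part, 9.07% in the middle and 9.19% in the last were double-marked, with intervals of 9.57 to 14.4%, 6.68 to 12.2% and 6.65 to 12.6%. In B6 the shares were 34.6%, 32.8% and 33.2%. In genes with several peaks, 45.5% of 4104 B6 peaks were double-marked where another peak of the gene was, and 22.5% of 2770 where none of the others was. Peaks of 1 gene enter these shares together and are not independent. Gene length, with which the B6 share varied, and the number of peaks per gene were not held equal. In EK the corresponding counts were 16 of 64 and 26 of 455, and the 16 are the peaks of the 8 genes named next.

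The EK double-marked peaks fell in 189 protein-coding genes, of which 8 held 2 such peaks and none more. Of all 5353 protein-coding genes with a B6 peak, 2259 held a double-marked one in B6 (42.2%), so a gene without one was common. In 4 of the 8 genes with 2 EK double-marked peaks, no B6 peak was double-marked. They were Agtpbp1, a tubulin deglutamylase, with 2 double-marked peaks of 2 in EK and 0 of 4 in B6, Gpsm2, a spindle orientation protein, with 2 of 2 and 0 of 3, Cep85, a centrosomal protein, with 2 of 2 and 0 of 3, and Naf1, an assembly factor of small nucleolar ribonucleoproteins, with 2 of 2 in EK and 0 of 2 in B6. The other 4 were Bbs9, a subunit of the ciliary BBSome, with 2 of 9 in EK and 4 of 12 in B6, Vps8, an endosomal tethering factor (2 of 2 and 1 of 5), the zinc finger gene Zfp385b (2 of 2 and 4 of 6) and Capzb, the beta subunit of the actin capping protein (2 of 2 and 1 of 2). These 8 genes were singled out after their values were seen.

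The next comparison held the sites constant. Of the B6 H3K4me3 peaks, 3262 overlapped an EK H3K4me3 peak. At these sites 805 were double-marked in B6 (24.7%, 23.2 to 26.2%) and 241 in EK (7.39%, 6.54 to 8.34%). The double mark was found in both genotypes at 158 sites, in B6 only at 647 (19.8% of the 3262), in EK only at 83 (2.54%) and in neither at 2374. Sites with the double mark in EK only were thus fewer than sites with it in B6 only.

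These 4 classes differed in their relation to genes. Of the 83 sites double-marked in EK only, 81 lay inside a protein-coding gene span (97.6%, 91.6 to 99.3%). The share inside spans was 69.6% for the 158 sites marked in both (62.1 to 76.3%), 45.1% for the 647 marked in B6 only (41.3 to 49.0%) and 58.4% for the 2374 marked in neither (56.4 to 60.4%). Seen the other way, among sites without the double mark in B6, EK had it at 81 of 1468 inside spans (5.52%, 4.46 to 6.81%) and at 2 of 989 outside (0.202%, 0.0555 to 0.734%). Among sites double-marked in B6, EK had it at 110 of 402 inside (27.4%, 23.2 to 31.9%) and at 48 of 403 outside (11.9%, 9.10 to 15.4%). The genes of the EK-only sites were shorter, with a median of 57.2 kb against 129.7 kb for the B6-only sites, 65.3 kb for sites marked in both and 92.9 kb for sites marked in neither.

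The classes differed in width too. Sites marked in both were wide in B6 (median H3K4me3 width 2217.5 bp) and had 1085 bp in EK. Sites marked in B6 only had medians of 1922 bp in B6 and 830 bp in EK. Sites marked in EK only had 838 and 681 bp, and sites marked in neither had 696.5 and 631.5 bp. The EK interval was a median of 0.452 times the B6 interval at sites double-marked in B6 only. It was 0.547 times at sites marked in both, 0.841 times in EK only and 0.988 times in neither. Wide intervals were more often double-marked in both genotypes, so sorting sites by the double mark also sorts them by width. These ratios therefore only describe the classes.

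Most double-marked sites of B6 had no H3K4me3 peak left in EK, and this was also true of B6 H3K4me3 peaks at large. Of all 18427 B6 H3K4me3 peaks, 3262 overlapped an EK H3K4me3 peak. These were 805 of the 6892 double-marked B6 peaks and 2457 of the 11535 without the double mark, a lower share of the double-marked ones. Of the 6894 B6 double-marked intervals, 6095 overlapped no EK peak (88.4%, 87.6 to 89.1%), 641 overlapped an EK H3K4me3 peak alone (9.30%, 8.63 to 10.01%) and 158 an EK double-marked interval (2.29%, 1.96 to 2.67%). Retention did not change in 1 direction with width. The double mark was found in EK at 2.95% of the narrowest quartile of B6 double-marked intervals (51 of 1727, 108 to 1080 bp), at 0.347% of the second, at 0.466% of the third and at 5.39% of the widest (93 of 1724, 1665 to 5015 bp). Intervals of the 2 middle quartiles, up to 0.918%, did not reach those of the outer ones. H3K4me3 alone in EK had the same shape, at 11.0%, 3.24%, 4.31% and 18.6%. Among intervals with any EK peak, the double-marked shares were 21.2% (16.5 to 26.8%), 9.68% (4.51 to 19.5%), 9.76% (5.03 to 18.1%) and 22.5% (18.7 to 26.7%). There the intervals of both middle quartiles overlapped that of the narrowest. As a share of all B6 double-marked intervals, the double mark in EK differed in the narrowest quartile between gene spans and the rest. It was found at 47 of 932 inside spans (5.04%, 3.81 to 6.64%) and 4 of 795 outside (0.503%, 0.196 to 1.29%). In the second quartile it was 4 of 819 inside (0.488%, 0.190 to 1.25%) and 2 of 909 outside (0.220%, 0.0604 to 0.799%), with overlapping intervals. In the third quartile it was 8 of 802 inside (0.998%, 0.506 to 1.96%) and 0 of 913 outside (Wilson upper bound 0.419%). In the widest quartile the shares were similar, 5.92% of 861 inside (4.53 to 7.70%) and 4.87% of 863 outside (3.62 to 6.51%). Among the intervals there with any EK peak they were not similar. The double mark was found at 51 of 171 inside (29.8%, 23.5 to 37.1%) and 42 of 243 outside (17.3%, 13.0 to 22.5%). H3K4me3 left alone also differed in the widest quartile, seen at 23.3% outside (20.6 to 26.2%) and 13.9% inside (11.8 to 16.4%). So did the absence of any EK peak, at 71.8% outside (68.7 to 74.7%) and 80.1% inside (77.3 to 82.7%).

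**Figure D3:**
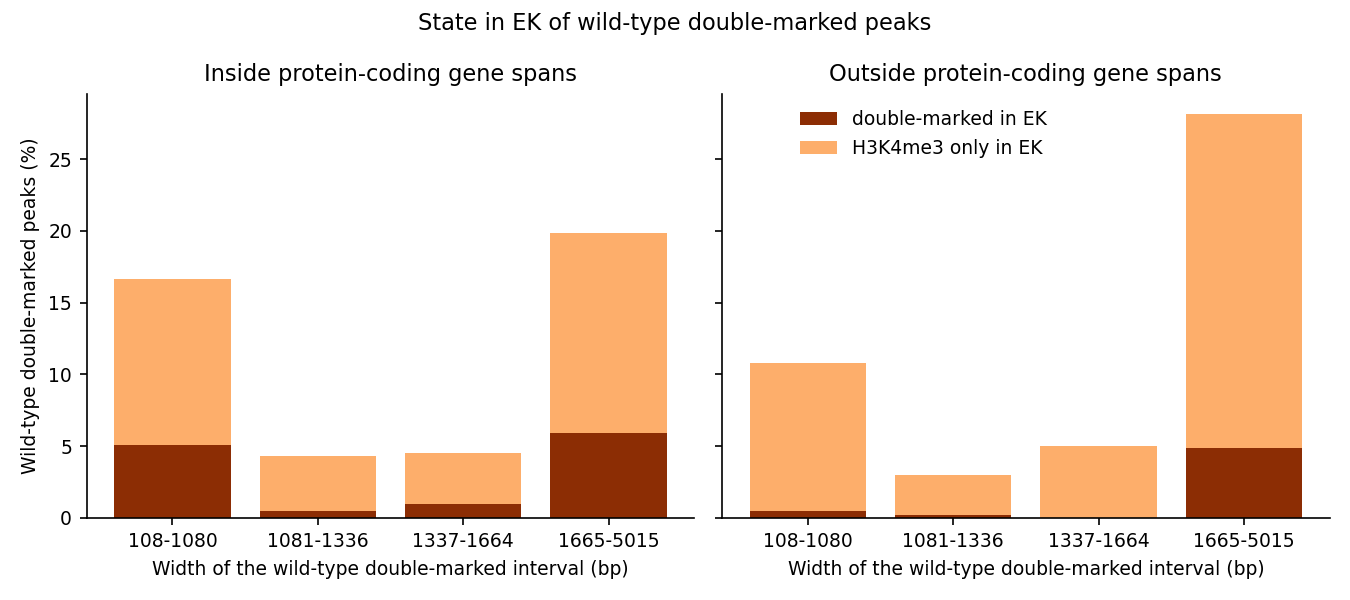
State in EK of the B6 double-marked intervals (y axis, percent of intervals) by quartile of their B6 width (x axis, bp), inside and outside protein-coding gene spans; the intervals above each bar, up to 100%, had no EK peak and are not drawn. Dark bars, the double mark in EK, reach 5.04% in the narrowest quartile inside spans and 0.503% outside, but 5.92% and 4.87% in the widest.

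Double-marked intervals were read next by how much of the H3K4me3 interval the double mark covered. Every double-marked interval lay inside an H3K4me3 interval of its genotype, and the lowest cover was 20.1% in B6, 21.2% in EK and 21.7% in EP. How the authors joined both marks into 1 interval is not given, and whether a minimum overlap set these lowest values, and with them the counts at low cover, was not tested. The median cover was 94.0% in B6 (interquartile range 84.5 to 100%) and 100% in EK (72.6 to 100%). EK was more spread at both ends. Full cover was found at 51.0% of EK double-marked peaks (44.8 to 57.2%, 124 of 243) and 32.5% of B6 ones (31.4 to 33.6%). Cover below 50% was found at 9.05% of EK peaks (6.05 to 13.3%, 22 of 243) and at 0.696% of B6 peaks (0.526 to 0.922%, 48 of 6892).

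The high share of full cover in EK belonged to narrow intervals and to gene spans. Among EK intervals below 1000 bp 70.8% were fully covered (62.7 to 77.8%), close to the 68.3% in B6 (65.0 to 71.4%). Among wider ones the shares were 25.5% in EK (18.1 to 34.5%) and 27.7% in B6 (26.6 to 28.9%). Inside gene spans 60.1% of EK peaks (53.1 to 66.8%) and 47.9% of B6 peaks (46.3 to 49.6%) were fully covered. Outside them it was 16% in EK (8.34 to 28.5%, 8 of 50) and 17.3% in B6 (16.05 to 18.6%). The median cover outside gene spans was lower in EK than in B6, at 77.0% (70.0 to 86.7%) and 90.2% (89.7 to 90.8%). The gap in median cover was also wide for intervals of 1500 to under 2000 bp, with 72.8% over 28 EK peaks and 91.1% over 2395 B6 peaks.

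**Figure D4:**
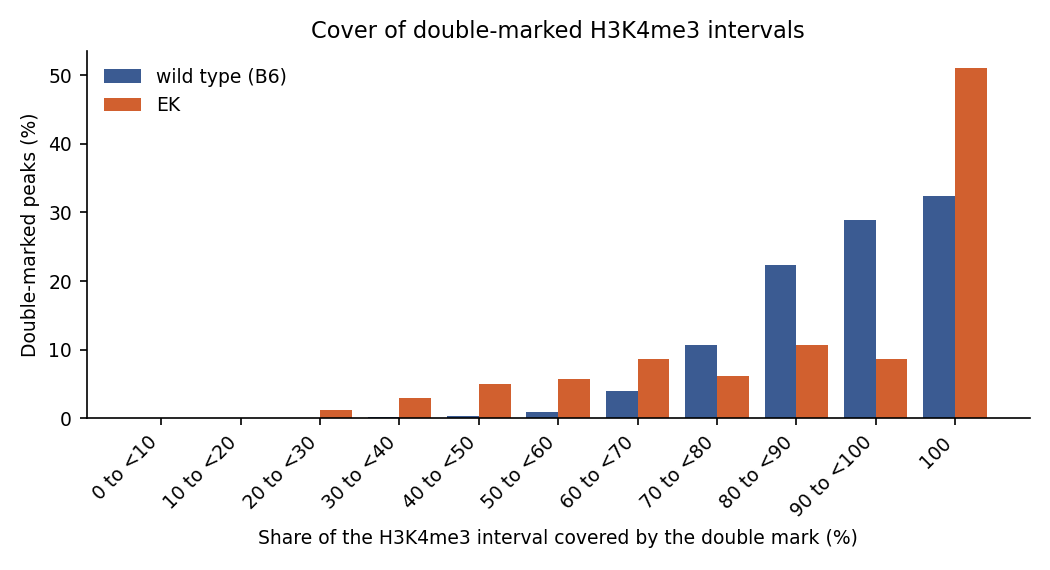
Share of double-marked peaks (y axis, percent) by how much of the H3K4me3 interval the double mark covers (x axis, percent; the last class is full cover), in B6 and EK. EK has more peaks at full cover, 51.0% against 32.5%, and more below 50%, 9.05% against 0.696%.

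The borders of both intervals were compared next. In EK 39 of 243 double marks shared no border with the H3K4me3 interval, 80 shared 1 and 124 shared both. In B6 these numbers were 2120, 2536 and 2238 of 6894. At partly covered peaks the uncovered length had a median of 291 bp in EK and 183 bp in B6. A second double-marked piece in the same H3K4me3 interval was seen at 2 B6 peaks and at 0 of 243 EK peaks.

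At the 158 sites double-marked in both genotypes, the double mark itself was narrower in EK. Its median width was 2131 bp in B6 and 831 bp in EK, with EK narrower at 134 sites, equal at 11 and wider at 13. The median ratio was 0.459 (interquartile range 0.348 to 0.683), against 0.547 for the H3K4me3 interval at the same sites. Cover was lower in EK at 89 sites, equal at 57 and higher at 12. All 57 equal sites were fully covered in both genotypes, 53 of them inside gene spans. The EK double mark lay wholly within the B6 one at 139 of 158 sites (88.0%), with midpoints a median of 124.5 bp apart.

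The 158 sites were also described below and above 1000 bp of B6 double-marked width, a division made after the values were seen and at no gap in the widths. Since it uses the B6 width, no EK to B6 ratio of widths is compared across it. The B6 double-marked width also enters the B6 cover, so the covers below describe each group and cannot be compared across the division. Of 48 sites below it 44 were inside gene spans, with median double-marked widths of 575.5 bp in B6 and 515 bp in EK. Of 110 sites above it 66 were inside gene spans, with medians of 2458.5 bp in B6 and 1001 bp in EK. Cover at the wider sites was lower in EK at 78, equal at 24 and higher at 8, with medians of 99.9% in B6 and 81.9% in EK. At the narrower sites it was lower at 11, equal at 33 and higher at 4, with 100% as the median in both genotypes.

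**Figure D5:**
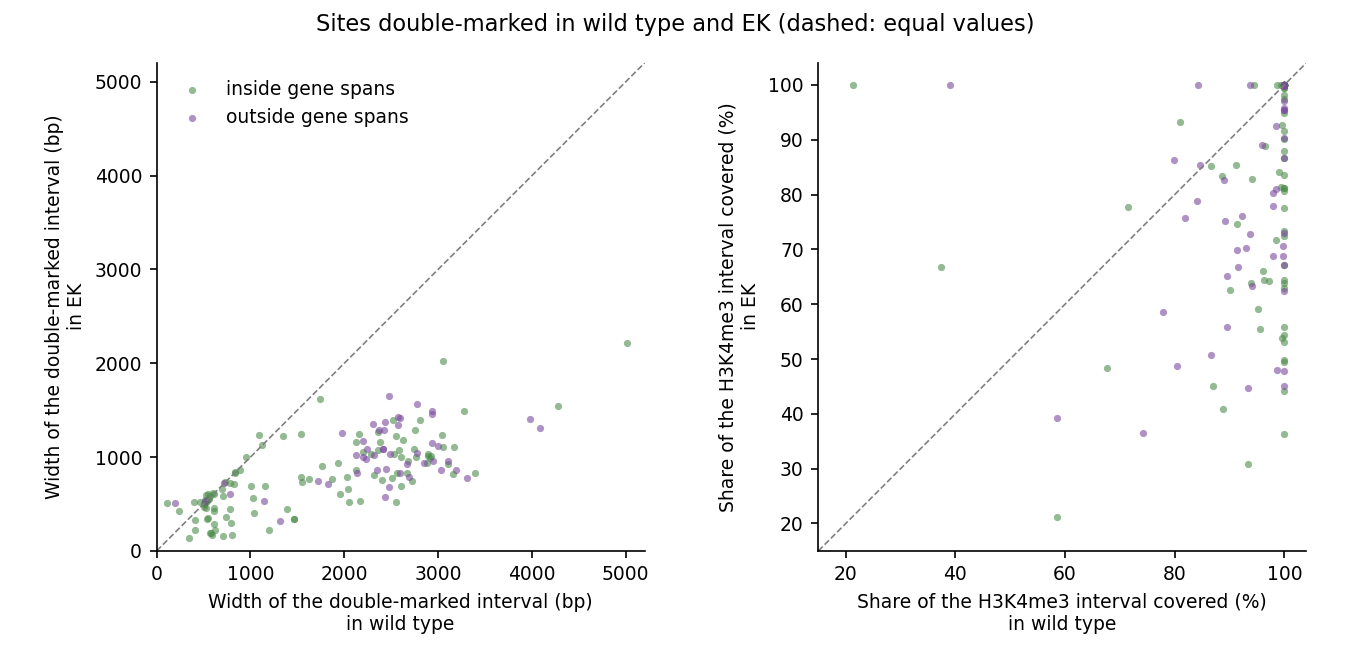
The 158 sites double-marked in both genotypes, each as 1 point: width of the double-marked interval in bp (left) and cover of the H3K4me3 interval in percent (right), B6 on the x axis and EK on the y axis, coloured by gene span. On the left 134 points lie below the dashed line of equal values; on the right 89 lie below it.

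Sites that kept the double mark varied in how far it shrank. The widest EK double mark at such a site was in Capzb, chr4:139205699-139207917, 2219 bp in EK within a B6 double mark of 5015 bp. Each was set against the H3K4me3 interval of its own genotype, of which the EK mark covered 100% and the B6 mark 98.6%. At Sptbn5, a beta spectrin gene, on chr2:120065389-120067413, the EK double mark of 2025 bp stood against 3057 bp in B6, with full cover in both. At Cntnap5b, a neurexin-family cell adhesion gene, on chr1:99859854-99861467, the widths were closest among the 6 widest shared sites, 1614 bp in EK and 1741 bp in B6. Nrg1, which encodes the growth factor neuregulin, on chr8:32249393-32250938, showed a loss of cover, with 1546 bp and 64.2% of the H3K4me3 interval in EK against 4275 bp and 97.3% in B6. The remaining 2 of the 6 widest shared sites overlapped no protein-coding gene. The first, chr12:104258797-104260448, had 1652 bp and 86.2% cover in EK and 2474 bp and 79.9% in B6. The second, chr6:147648976-147650543, had 1568 bp and 82.6% in EK and 2770 bp and 89.1% in B6.

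At other wide B6 sites H3K4me3 stayed in EK without the double mark. The widest was within Myt1, a zinc finger transcription factor gene, chr2:181808678-181813595. There a B6 double mark of 4918 bp with full cover met an EK H3K4me3 interval of 1501 bp. Others were chr12:16399337-16403338 outside protein-coding genes (4002 bp, EK H3K4me3 1912 bp) and chr1:168520615-168524065 outside protein-coding genes (3451 bp, EK 2246 bp). These EK H3K4me3 widths were in the range of the 6 widest shared sites, which had H3K4me3 intervals of 1643 to 2407 bp, or just below it. So a wide EK H3K4me3 interval did not always carry the double mark.

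All B6 double marks lay about evenly inside (3414) and outside (3480) gene spans. So did those where EK had no peak at all, with 3017 inside and 3078 outside. The 4 widest lay in Ammecr1 at chrX:142895371-142899321 (3951 bp), in Pip5k1b, a phosphatidylinositol phosphate kinase gene, at chr19:24380746-24384398 (3653 bp), in Ube3a, a ubiquitin ligase gene, at chr7:59232613-59236183 (3571 bp) and in Abcb11, the bile salt export pump gene, at chr2:69264378-69267893 (3516 bp). The first 3 were fully covered in B6 and the fourth to 97.4%.

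The widest EK double mark of all, in Dennd1a, was at a B6 site without one. The EK double marks at such sites were mostly narrower than at shared sites, with a median of 635.5 bp over 82 intervals against 831 bp, and 59 of them covered the whole H3K4me3 interval. The 4 widest were all in genes. They were in Dennd1a, which encodes an activator of a Rab GTPase, at chr2:38136552-38138842 (2291 bp, cover 94.3%), and in Dock3, a guanine nucleotide exchange factor gene, at chr9:107051290-107052966 (1677 bp). The other 2 were in Dcaf8, a ubiquitin ligase substrate receptor gene, at chr1:172174920-172176425 (1506 bp), and in Med26, a Mediator subunit gene, at chr8:72512074-72513490 (1417 bp), all 3 after Dennd1a with full cover. The B6 H3K4me3 intervals at these sites were wider, 3850, 3372, 2241 and 3277 bp, and had no double mark. The number of EK H3K4me3 peaks at no B6 peak was not counted, so no double-marked share is given for them. Of the EK double-marked peaks, 3 were at no B6 peak (1.23%). All 3 were in genes, beside 79.4% of all EK double-marked peaks. They were in Rpl3, a ribosomal protein gene (chr15:80080834-80081184, 351 bp), in Pura, a nucleic acid binding protein gene (chr18:36289026-36289249, 224 bp), and in Sinhcaf, a gene of the SIN3 deacetylase complex (chr6:148942434-148942559, 126 bp, cover 24.9%).

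Genes of meiosis held B6 peaks about as often as protein-coding genes in general. Of 44 such genes found in the annotation, 11 held a B6 peak in their span, beside 24.5% of all protein-coding genes (5353 of 21887). They held 19 peaks in all, of which 3 were double-marked (15.8%, beside 34.3% of all B6 peaks inside gene spans). The double-marked ones were 2 of the 4 B6 peaks in Tex11, a gene of the meiotic recombination machinery on the X chromosome, and 1 of 4 in Cdyl, a chromodomain gene. EK had a peak in 3 of the 44 genes, beside 7.42% of all protein-coding genes (1624 of 21887). Of these 3 peaks 1 was double-marked, beside 10.2% of all EK peaks inside gene spans. It lay in Hormad1, which encodes a protein of the meiotic chromosome axis. That interval, chr3:95561196-95561697, was 502 bp in EK with full cover, and the B6 H3K4me3 interval had the same borders and no double mark.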

How the data were processed

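H3K4me3 and H3K36me3 peaks were read from 6 lists that the authors deposited, 1 per genotype for H3K4me3 and 1 for peaks with both marks. Each gives chromosome, start and end, with no score or count. The readme of the deposit says that only sites already known to depend on PRDM9 were kept. The submitters' processing notes name build mm10, Trimmomatic, BWA 0.7.9a and MACS 1.4, without settings. Signal tracks were not used here. How both marks were combined into 1 interval and which input control was used are not given in the sources used here. Depth is unknown, so a weaker library and a weaker mark cannot be told apart.

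Overlaps of 1 bp or more, covered lengths and shares were computed with pandas 2.3.3 (Python 3.11.15), Wilson intervals with SciPy 1.17.1 and Newcombe intervals with statsmodels 0.14.6. The overlap and cover steps were checked on simulated intervals. Gene spans are those of 21887 protein-coding genes of RefSeq GRCm38.p6. Strand came from the RefSeq promoter table.

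Members, lists and alternatives were chosen with earlier results of these data known. Named sites are the 6 widest EK double marks shared with B6, the 4 widest B6 ones kept as H3K4me3 only, the 4 widest lost, the 4 widest EK ones at B6 sites without the double mark, and all EK ones at no B6 peak. A named site and a gene list are not reported here. The gene length, position and shared-gene descriptions were added after the lists were seen.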

Additional observations from a re-analysis of the deposited data

How the results depend on the processing

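Of 122 recomputed values none changed sign, which was possible only for the EK minus B6 differences. A total of 105 stayed within the 95% interval of the reported one. These include every value with overlap of at least 50% of the shorter interval, midpoints at most 500 bp apart, cover of at least 50%, merging within 500 bp, autosomes only, and no peaks within 1 kb of a gene boundary. The overlap of at least 50% could not move the shares over all peaks, their difference or the cover, because every double mark lies inside an H3K4me3 interval; it bears only on the same-site shares and on the state of B6 double marks in EK. Leaving out peaks in protein-coding gene spans moved all 12 values tried. The double-marked share became 41.0% in B6 and 3.53% in EK (difference -37.46 percentage points), 29.0% and 3.59% at the same sites (difference -25.36), and 14.0% for B6 at EK widths (difference -10.47). Median cover became 90.2% in B6 and 77.0% in EK, and of the B6 double-marked intervals 1.38% were double-marked and 10.2% H3K4me3 only in EK. With peaks of at least 500 bp these last were 1.88% and 7.32%, the share of EK double-marked peaks inside gene spans was 73.7%, and the EK share outside spans 4.67%. With genes of any biotype 58.2% of B6 double-marked peaks were inside spans. Apart from leaving out peaks in gene spans, the alternatives for the gene-span results were chosen after seeing the data. No paired analysis was possible because each genotype has 1 list per kind and the H3K36me3 groups have 1 library each. Unknown depth limits what a missing double mark shows.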
